A study of Mus musculus with 12 samples.

Results

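Aggrecan, link protein, the matrilins and other non-collagen proteins of cartilage matrix were examined in Runx2-null and wild-type mouse humeri. The set holds 10 genes, Acan, Hapln1, Comp, Matn1, Matn2, Matn3, Matn4, Mia, Chad and Cnmd. They were found as every probe set, other than controls, whose platform annotation gave 1 gene symbol from this list, which returned 16 of 36701 probe sets, or 10 of 15964 genes named there. The choice used no measured value. All 16 carried the same gene ID in a mouse reference gene table.

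The humerus is the long bone of the upper forelimb, and total RNA was taken from it at embryonic day E14.5. The Runx2-null group is labelled Runx2 -/-, and its 2 RNA pools held about 60 humeri each. The wild-type group had 2 pools of about 75 humeri each. The labels give neither the strain nor the construction of the null allele. RNA of every pool was read on 3 array types of the MG_U74 version 2 design, called A, B and C, so 12 arrays were made. The level of the deleted gene itself is not analysed here.

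Cartilage resists compression because aggrecan, a core protein loaded with chondroitin sulfate chains, is packed along threads of hyaluronan and draws in water. Link protein, the product of Hapln1, clamps aggrecan to hyaluronan. Matrilins and COMP are multi-subunit adaptors that tie collagen fibrils to other matrix molecules, and chondroadherin binds collagen and chondrocytes. Chondromodulin, from Cnmd, keeps cartilage free of vessels, and Mia encodes a small protein secreted by chondrocytes. In a limb bone, chondrocytes make this matrix first and then enlarge, and Runx2 acts at that step and in osteoblasts.

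The link protein gene Hapln1 fell and Mia rose in the Runx2-null humeri when scan batch, the same as replicate number, was taken into account. Acan had log2 folds of -0.09 and -0.11 in the scan batches and did not pass. Matn3 was lower in both Runx2-null pools, and Comp and Cnmd were higher on array C as labelled, where the labels themselves are in doubt, but none of these 3 passed the test. The genes of the remaining matrilins and of chondroadherin had pool values that overlapped between genotypes. Without the scan batch in the fit, 0 of the 12 tested probe sets passed. With the scan batch but without limma's variance trend, 0 passed as well.

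The sequences upstream of Hapln1 and Mia, the genes that passed, are shown with that of Acan, the partner of link protein. RefSeq, build GRCm38.p6, had a promoter entry for 8 of the 10 genes. The entries run from 250 bases before a transcript start, and only bases outside the annotated gene are printed. Capitals mark TGTGGT, a RUNX core motif, searched on both strands together with the SOX cores ACAAAG and ACAATG, and no match overlapped another. The Hapln1 stretch lies at chr13:89540386-89540528 on the + strand, that of Mia at chr7:27181150-27181399 on the - strand and that of Acan at chr7:79052976-79053225 on the + strand.
Hapln1: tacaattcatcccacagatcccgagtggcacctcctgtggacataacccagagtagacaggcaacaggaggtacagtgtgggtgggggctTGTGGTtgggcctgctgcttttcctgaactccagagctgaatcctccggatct
Mia: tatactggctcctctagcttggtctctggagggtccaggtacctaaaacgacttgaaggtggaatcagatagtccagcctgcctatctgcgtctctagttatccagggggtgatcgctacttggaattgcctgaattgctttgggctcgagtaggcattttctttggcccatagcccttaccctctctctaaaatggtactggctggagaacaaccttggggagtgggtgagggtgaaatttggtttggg
Acan: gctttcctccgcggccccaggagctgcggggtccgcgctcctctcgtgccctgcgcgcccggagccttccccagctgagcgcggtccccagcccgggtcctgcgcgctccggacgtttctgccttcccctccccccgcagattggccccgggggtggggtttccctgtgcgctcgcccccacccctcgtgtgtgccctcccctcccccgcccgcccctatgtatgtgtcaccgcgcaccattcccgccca
Hapln1 held 1 match to TGTGGT in its 143 bases, beginning 160 bases before the transcript start of the entry, whereas 8.36% of all promoters held one in that stretch. Mia and Acan held 0, as did Matn3, Matn4, Chad and Cnmd. Matn1 held 1 match in its 250 bases, where 14.2% of all promoters held one. These counts cover TGTGGT alone. Another form of the RUNX core, TGCGGT, was not searched, and the Chad window holds it. No SOX core was found in the 8 windows, against 25.5% of all promoters over 250 bases. These matches describe letters only, and binding was not measured.

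Signals are MAS5 intensities, not logged, and they can be compared between arrays of 1 type but not between probe sets. Folds are differences of log2(signal + pseudocount), Runx2-null minus wild type, with pseudocounts of 7 on array A, 13 on B and 10 on C. A probe set was tested if it lay above the 40th percentile on at least 2 of 4 arrays, which kept 12 of the 16 and left at least 1 for each gene. Tests were made with limma over 23193 probe sets, and a call is a Benjamini-Hochberg adjusted p below 0.05. Values after ± are SD over n = 2 pools, SE is that of the fit with the block, and the 4 arrays per type limit the precision. The pools of a genotype are biological replicates by label, and the p-values speak for no pools beyond these. They do not rest on the spread among these pools alone, because limma also borrows variance from other probe sets. The weight of that borrowing, as prior degrees of freedom, was 12.7 on A, 7.74 on B and 4.65 on C in the blocked fit. Each value exceeds the 1 degree of freedom that the 4 arrays of a type leave for the spread in that fit. SEs, intervals and calls with the block therefore lean mostly on borrowed variance. In whole humeri, fewer cells of a type and less RNA per cell cannot be told apart.

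Replicate 1 and replicate 2 were read in different scan batches, at a pixel size of 3 and 2.5 µm. Both genotypes lay in each batch. Scanner type, number of scans and fluidics protocol also differed between the batches. The replicate numbers are separate RNA pools too, so scan batch and differences between the pools, such as in dissected tissue, cannot be told apart. The block called scan batch takes in both. Folds are therefore reported with scan batch as a block, without a block and inside each batch. Without the block 6 of 23193 probe sets passed (0.0259%), and 1792 had an unadjusted p under 0.05. With it 505 passed (2.18%), and on arrays A and B 343 of 15601 did (2.20%, with 0.904% higher and 1.29% lower). Fell and rose are used only where the blocked fit on array A or B made a call, a use settled with both counts known. Skeletal muscle markers summed to 4006.9 and 810.3 units in Runx2-null pools 1 and 2, against 3492.7 and 1022.3 in wild-type pools 1 and 2, so pool 1 had the higher sum in both genotypes.

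Array C stood apart, and the values of Comp and Cnmd rest on it alone. On arrays A and B, the 66 control probe sets of 2 arrays from the same scan batch correlated at 0.987 to 0.996, against 0.952 to 0.966 for 2 arrays of the same genotype. On array C it was the reverse, with 0.95 within each of the scan batches, against 0.984 and 0.991 within labelled genotypes. The muscle gene Mylpf on array C read 120.0 and 126.3 in Runx2-null pools and 228.0 and 220.7 in wild-type pools, without the gap between replicate numbers seen on arrays A and B. Its probe set on array A had log2 folds of 0.13 and 0.30 in scan batches 1 and 2, against -0.87 and -0.76 on array C. Ckm, the other muscle gene represented on array C, read 159.7 and 166.5 in Runx2-null pools and 151.0 and 167.8 in wild-type pools, so that its genotypes overlapped. On array C 51.2% of tested probe sets had genotypes that did not overlap, against 25.2% on array A. The labels of array C may have been exchanged between its arrays, which was not tested. If they were, its folds do not compare the genotypes. Genotype and whatever sets these arrays apart cannot be told apart, and all array C values are given as labelled.

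**Figure D1:**
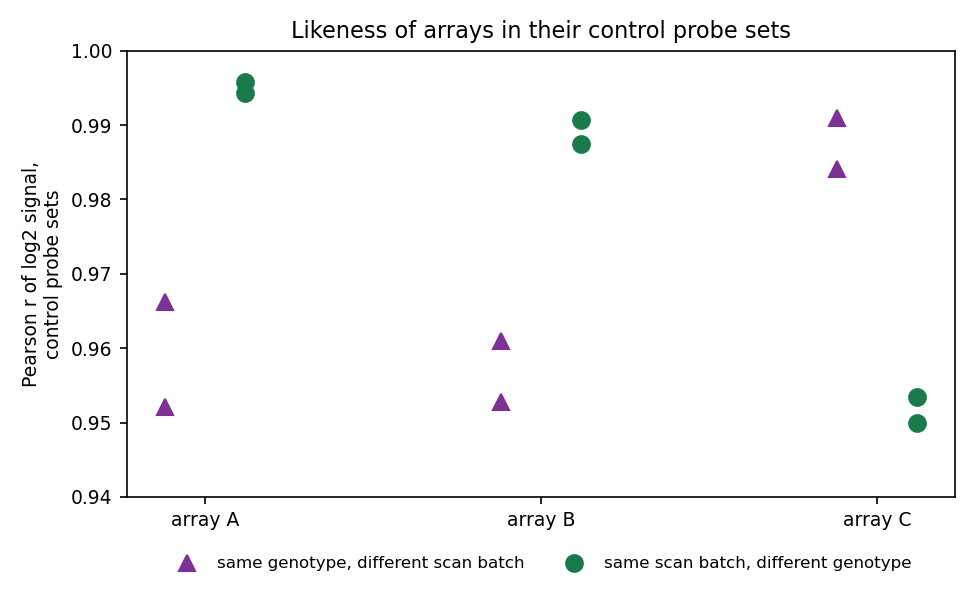
Pearson correlation of log2 signal over 66 control probe sets (vertical axis, starting at 0.94) between pairs of arrays, for array types A, B and C. Circles, pairs of 1 scan batch, lie above triangles, pairs of 1 genotype, on arrays A and B and below them on array C.

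Col9a1, Col9a2, Col11a1, Col11a2, Sox9 and Sox6, markers of chondrocytes, were tested on arrays A and B, and 0 of these 6 passed with the block. The probe sets of Col2a1 and Sox5 lay below the filter, and Col9a3 was represented by a probe set on array C. On array A, Col9a3 had log2 folds of 0.37 and 0.16 in scan batches 1 and 2, against 1.04 and 0.71 on array C as labelled. With 1 probe set on array A or B for each of the 9 markers, dim ones included, the chondrocyte markers summed to 16902.8 and 17403.2 units in Runx2-null pools, against 14119.4 and 16830.6 in wild-type pools. Bright probe sets weigh most in such sums. Col9a1 alone gave 5807.4 and 7143.7 units in Runx2-null pools and 4625.5 and 6374.2 in wild-type pools. The 6 hypertrophic markers summed to 241.1 and 159.6 units in Runx2-null pools and to 1213.4 and 1559.8 in wild-type pools, and 5 of the 5 tested fell. The 7 osteoblast markers summed to 9303.2 and 6306.9 units in Runx2-null pools and to 13279 and 11729.6 in wild-type pools, where 6 of 7 fell. Macrophage and osteoclast markers summed to 399.7 and 479.1 units in Runx2-null pools and to 1157.9 and 1403.3 in wild-type pools, where 2 of the 4 tested fell.

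Of the 12 tested probe sets of the cartilage proteins, 2 passed with the block, 1 higher and 1 lower, and 10 did not, beside the 2.18% of all probe sets. At an unadjusted p under 0.05 there were 5 of 12 with the block (16.8% of all) and 4 of 12 without it (7.73% of all), the 4 being 2 on array A (2.25% there) and 2 on array C (19.4% there). On array A, which holds 8 of them, 2 of 8 passed, where 3.86% of all tested probe sets of that array did, and on array C 0 of 3 did, beside 2.13%. Their median log2 fold on array A was 0.01, beside 0.02 for all 7745 probe sets tested there. Genotypes did not overlap for 3 of the 8, 1 higher and 2 lower, beside the 25.2% of array A. Genotypes also stood apart for 2 of 3 on array C, beside 51.2%, but not for the 1 on array B, where 25.4% of all did.

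**Figure D2:**
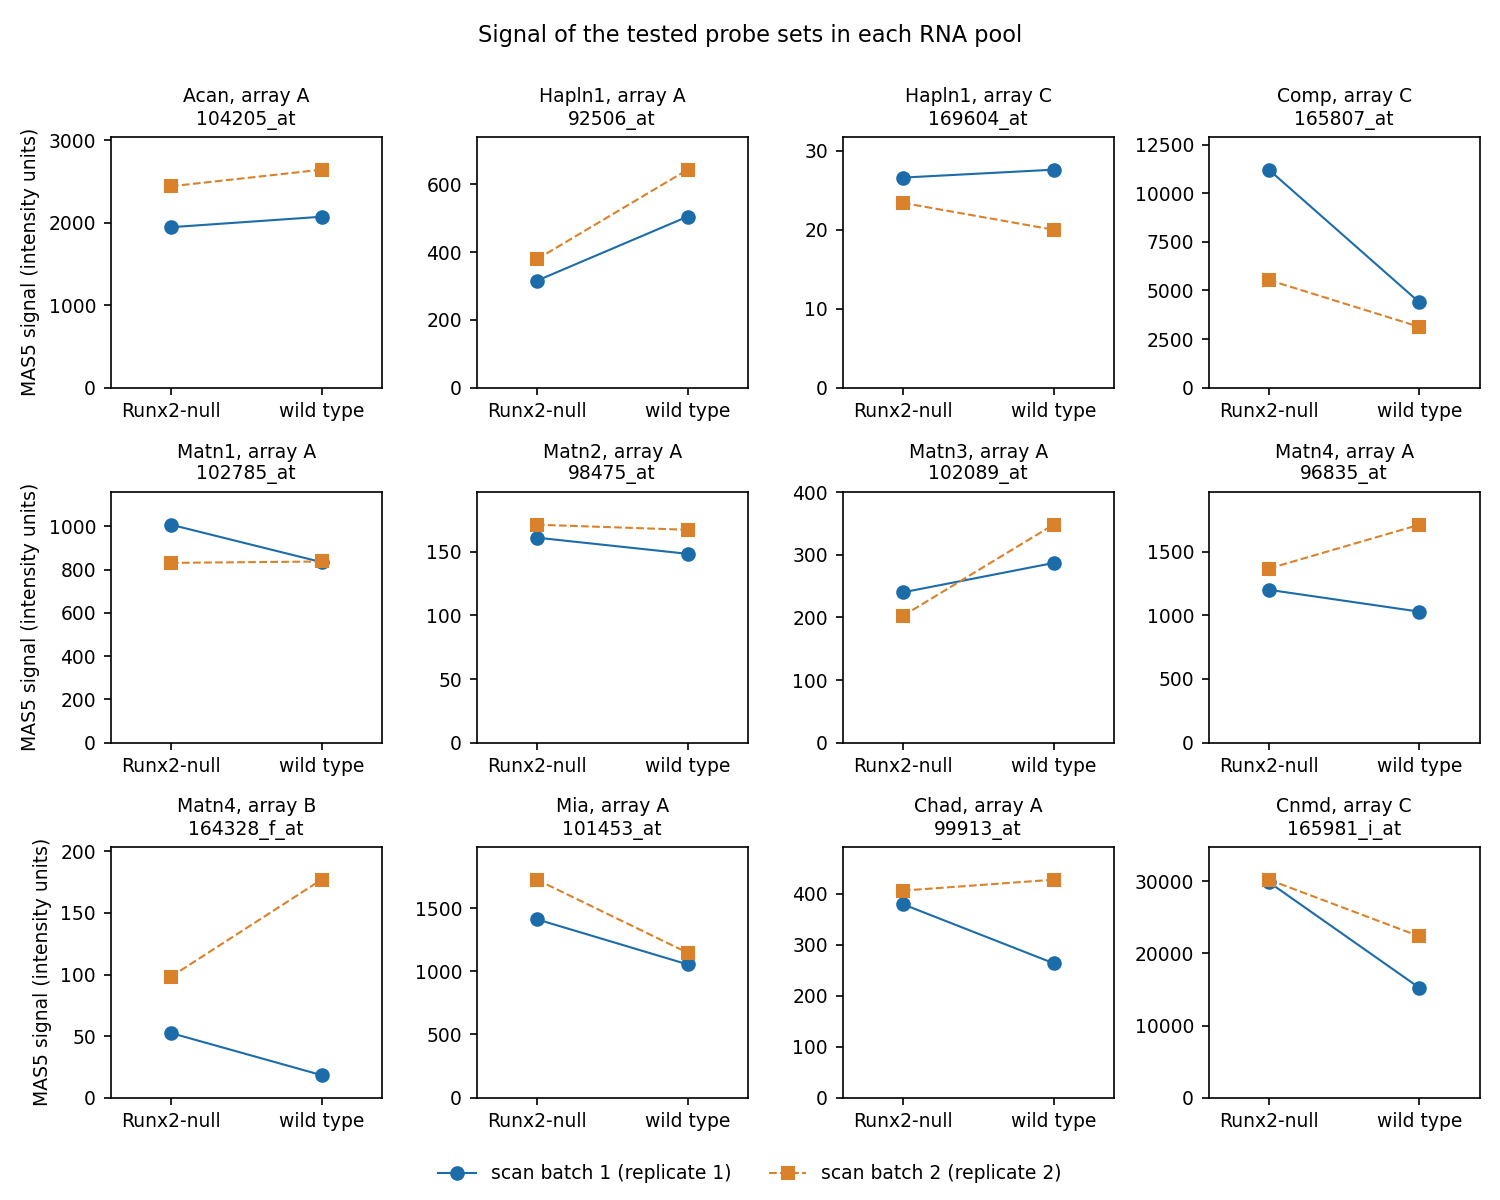
MAS5 signal in intensity units (vertical axis from 0, 1 scale per panel) of the 12 tested probe sets in Runx2-null and wild-type humeri. Each point is 1 pool, and lines join pools of the same scan batch. Both Hapln1 lines on array A run up towards wild type and both Mia lines run down, while Matn4 and Chad lines run in opposite directions.

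The aggregate itself is described first. Acan, the core protein gene of aggrecan on chromosome 7 (GRCm38.p6, chr7:79053226-79115099), had signals of 1947.6 and 2444.3 in Runx2-null pools and 2074.5 and 2645.5 in wild-type pools. The genotypes overlapped, and the second pool was the brighter one in both. The means were 2196 ± 351 in Runx2-null and 2360.0 ± 404 in wild-type pools, which gave -0.10 in log2 fold with an SE of 0.07 (adjusted p = 0.525 with the block, 0.999 without it). The 95% confidence interval of the fold with the block ran from -0.26 to 0.06, and the folds within scan batches 1 and 2 were -0.09 and -0.11.

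Hapln1, the link protein gene (chr13:89540529-89611832), had signals of 315.4 and 378.7 in Runx2-null pools and 504.3 and 642.7 in wild-type pools on array A. Both Runx2-null values lay below both wild-type values. The means were 347 ± 44.8 in Runx2-null and 573.5 ± 97.9 in wild-type pools, and Hapln1 fell by 0.71 on the log2 scale with an SE of 0.10 (adjusted p = 0.00177 with the block, 0.492 without it). The 95% confidence interval with the block was -0.92 to -0.50. Within scan batches 1 and 2 the folds were -0.67 and -0.75, and 2.30% of tested probe sets on array A had a lower fold. The RUNX core found upstream of Hapln1 was also found upstream of Matn1, whose fold did not pass, and its part in the fall was not tested.

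The call for Hapln1 was lost when the block was used without limma's variance trend (adjusted p = 0.261), where 0 of the 12 passed. Hypertrophic and osteoblast markers were lower in the same pools, as given above, and their part in the fall was not tested. The other Hapln1 probe sets lie on array C and were dim. The first read 26.6 and 23.4 in Runx2-null pools and 27.6 and 20 in wild-type pools, with a log2 fold of 0.06 (SE 0.43, adjusted p = 0.968) and an interval from -1.02 to 1.13. The second was below the filter, at 24.4 and 4.40 in Runx2-null pools and 4 and 2.30 in wild-type pools. The interval of the first includes both 0 and the fold on array A.

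The fold of Hapln1 was lower than that of Acan on the same arrays by 0.57 in batch 1 and 0.64 in batch 2 on the log2 scale. The mean gap in log2 fold, Hapln1 minus Acan, was -0.61, with an exact two-sided permutation p = 0.333, which is the smallest that 2 against 2 pools allow. This permutation test does not use the scan batches, and no other test of the gap was run. Of 5 such gaps computed, all had this p.

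Mia (chr7:27179741-27181149), also known as CD-RAP and a marker of differentiated chondrocytes, had signals of 1410.6 and 1724.0 in Runx2-null pools and 1054.2 and 1146.3 in wild-type pools. Both Runx2-null values exceeded both wild-type values. The means were 1567 ± 222 in Runx2-null and 1100.2 ± 65.1 in wild-type pools, and Mia rose by 0.50 on the log2 scale with an SE of 0.08 (adjusted p = 0.00688 with the block, 0.578 without it). The interval with the block was 0.32 to 0.68, and within scan batches 1 and 2 the folds were 0.42 and 0.59. The call was lost with the block but without the variance trend (adjusted p = 0.307). On array A 3.91% of tested probe sets had a higher fold.

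Mia and Hapln1 had the highest and lowest folds of the 8 cartilage probe sets on array A, so a gap between them follows from their choice. It was 1.08 in batch 1 and 1.34 in batch 2 on the log2 scale (mean gap, Mia minus Hapln1, 1.21). The exact two-sided permutation p = 0.333 is again the smallest possible. Markers of tendon and fibrous tissue differed among themselves. They summed to 2466.1 and 2231.0 units on arrays A and B in Runx2-null pools, against 1902.3 and 1477.2 in wild-type pools. Of the 5 tested there 3 rose, namely Dcn, Kera and Ogn. Scx and Thbs4 did not pass, with log2 folds of -0.09 and -0.20 (adjusted p = 0.710 and 0.650 with the block). Tnmd, on array C as labelled, had a log2 fold of -1.68. Joint markers, 4 of them with a probe set on array A or B, summed there to 918.8 and 607.8 units in Runx2-null pools. The sums were 601.0 and 448.2 in wild-type pools. Wnt4 was represented in the tests by a probe set on array C, and of the other 3 markers, on arrays A and B, 1 rose. That was Sfrp2, a secreted Wnt modulator, whose log2 fold was 0.66 (adjusted p = 0.00667 with the block, 0.965 without it). Its signals were 574.8 and 264.4 in Runx2-null pools and 346.9 and 172.9 in wild-type pools, so its genotypes overlapped across batches. The part of either list in the rise of Mia was not tested.

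Matn1 and Matn3 encode matrilins found mainly in cartilage. Matn3 (chr12:8947929-8972028) had signals of 239.9 and 202.4 in Runx2-null pools and 286.8 and 347.9 in wild-type pools on array A. Both Runx2-null values lay below both wild-type values, with means of 221 ± 26.5 in Runx2-null and 317 ± 43.2 in wild-type pools. The log2 fold was -0.51 with an SE of 0.13 (adjusted p = 0.0593 with the block, 0.739 without it), so Matn3 did not pass. The fold was -0.25 in batch 1 and -0.76 in batch 2, and the interval ran from -0.79 to -0.23.

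The remaining Matn3 probe sets, on array C, were at the floor. They read 0.90 and 8.40 in Runx2-null pools and 1.10 and 2.70 in wild-type pools for one, and 0.40 and 1.20 in Runx2-null pools and 0.60 and 3.70 in wild-type pools for the other. Neither was tested, and both carry the suffix _r, which marks probe sets designed under relaxed rules.

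Matn1 (chr4:130944385-130955476) had 1008.1 and 831.5 in Runx2-null pools and 834.9 and 837.9 in wild-type pools. The replicate 1 Runx2-null pool was the high one, and the replicate 2 pool lay just under both wild-type pools. The log2 fold was 0.13 (SE 0.09, adjusted p = 0.522), with an interval from -0.07 to 0.33. The folds of Matn3 and Matn1 differed by -0.52 in batch 1 and -0.75 in batch 2 (mean -0.64). Here too the exact two-sided permutation p = 0.333 is the smallest possible, so it cannot show a difference.

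Matn2 and Matn4 encode matrilins made in a wider range of connective tissues. Matn2 (chr15:34306681-34436242) had 161.2 and 171.4 in Runx2-null pools and 148.5 and 167.4 in wild-type pools, and its log2 fold was 0.07 with an SE of 0.13 (adjusted p = 0.827) and an interval from -0.20 to 0.35. A dim probe set of Matn2, at 18.3 and 16.6 in Runx2-null pools and 30.1 and 2.80 in wild-type pools, was not tested. The genotypes overlapped on both.

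Matn4 (chr2:164389393-164405160) had 1200.4 and 1367.2 in Runx2-null pools and 1028.6 and 1711.6 in wild-type pools on array A. The wild-type pools enclosed the Runx2-null pools. The log2 fold was -0.05 (SE 0.11, adjusted p = 0.862), with 0.22 in batch 1 and -0.32 in batch 2. On array B, a probe set with the suffix _f, which marks probes shared within a sequence family, read 52.5 and 98.2 in Runx2-null pools and 18.3 and 177.0 in wild-type pools. Its folds were 1.07 in batch 1 and -0.77 in batch 2, and the fitted log2 fold was 0.15 (SE 0.40, adjusted p = 0.897). Both probe sets thus had Matn4 higher in Runx2-null pools in batch 1 and lower in batch 2.

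Chad, the gene of chondroadherin (chr11:94565047-94569127), had 379.4 and 406.1 in Runx2-null pools and 263.7 and 427.5 in wild-type pools. The replicate 1 wild-type pool was the low one, and the other 3 pools lay close together. The log2 fold was 0.22 (SE 0.13, adjusted p = 0.413), with 0.51 in batch 1 and -0.07 in batch 2, so its direction differed between batches.

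**Figure D3:**
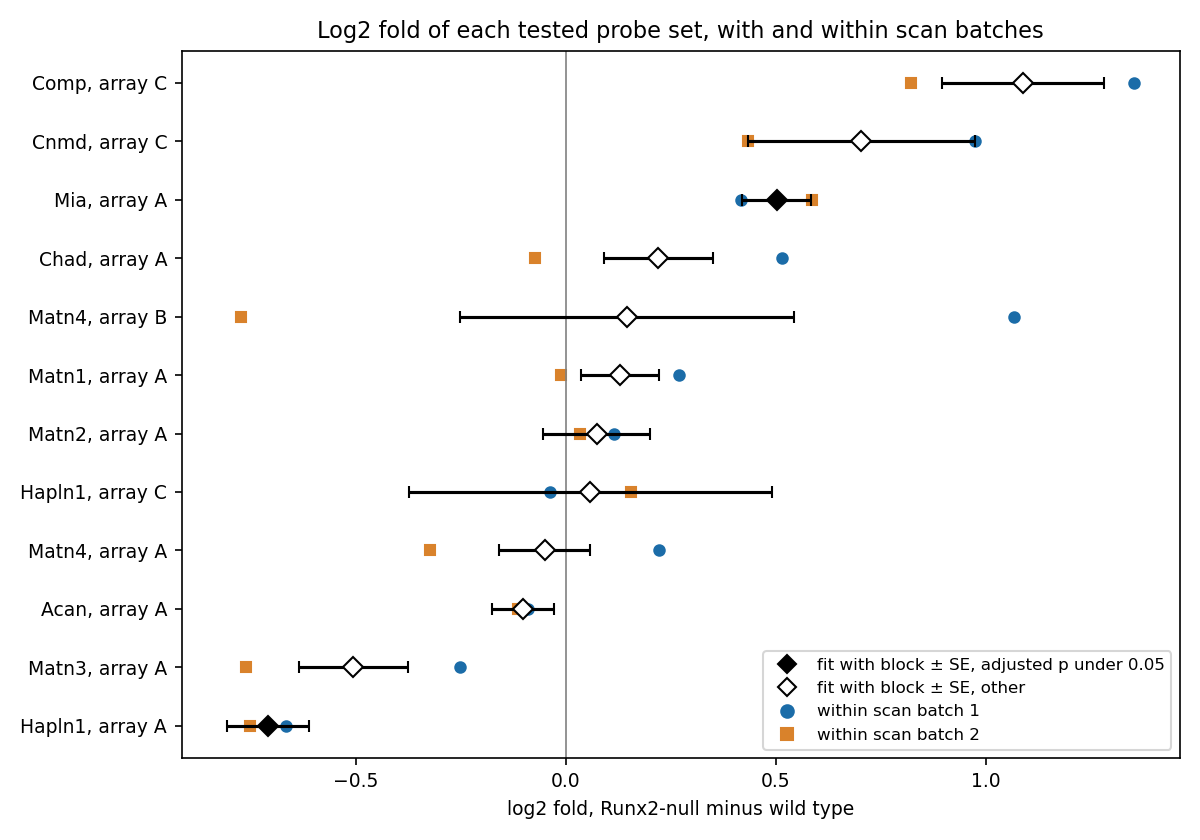
Log2 fold, Runx2-null minus wild type (horizontal axis), of the 12 tested probe sets. Diamonds with bars are the fit with the block ± SE, filled where the adjusted p was under 0.05, and circles and squares are the folds within scan batches 1 and 2. Only Hapln1 and Mia on array A are filled, and for Chad, Matn1, both Matn4 probe sets and Hapln1 on array C the batches lie on opposite sides of 0.

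Comp and Cnmd were read on array C and are described as labelled. Comp (chr8:70373548-70382066), a thrombospondin family member of cartilage and tendon, had signals of 11206.3 and 5532.3 in Runx2-null pools and 4380.9 and 3124.1 in wild-type pools. Both Runx2-null values were above both wild-type values, but the 2 Runx2-null pools differed from each other by more than the 2 wild-type pools did. The means were 8369 ± 4012 in Runx2-null and 3752.5 ± 889 in wild-type pools, and the log2 fold of 1.09, with an SE of 0.19, did not pass (adjusted p = 0.0591 with the block, 0.457 without it). It passed with the block and a filter at the 60th percentile (adjusted p = 0.0272). The folds were 1.35 in batch 1 and 0.82 in batch 2, and 4.28% of tested probe sets on array C had a higher one.

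Cnmd (chr14:79637682-79662194) had 29867.1 and 30209.2 in Runx2-null pools and 15214.3 and 22355.6 in wild-type pools. The Runx2-null pools lay close together and above both wild-type pools. By mean log2 signal this probe set stood at percentile 100 of array C, and whether its signal met a ceiling was not tested. The means were 30038 ± 242 in Runx2-null and 18785 ± 5050 in wild-type pools, and the log2 fold of 0.70, with an SE of 0.27, did not pass (adjusted p = 0.277 with the block, 0.496 without it). The fold was 0.97 in batch 1 and 0.43 in batch 2. On array C 11.2% of tested probe sets had a higher fold than Cnmd, and 24.7% had both Runx2-null values above both wild-type values.

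Over all 12 tested probe sets, 7 had the same sign of fold in both scan batches and 5 did not. On array A this was 5 of 8, beside 63.0% of the 7745 probe sets tested there.

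**Figure D4:**
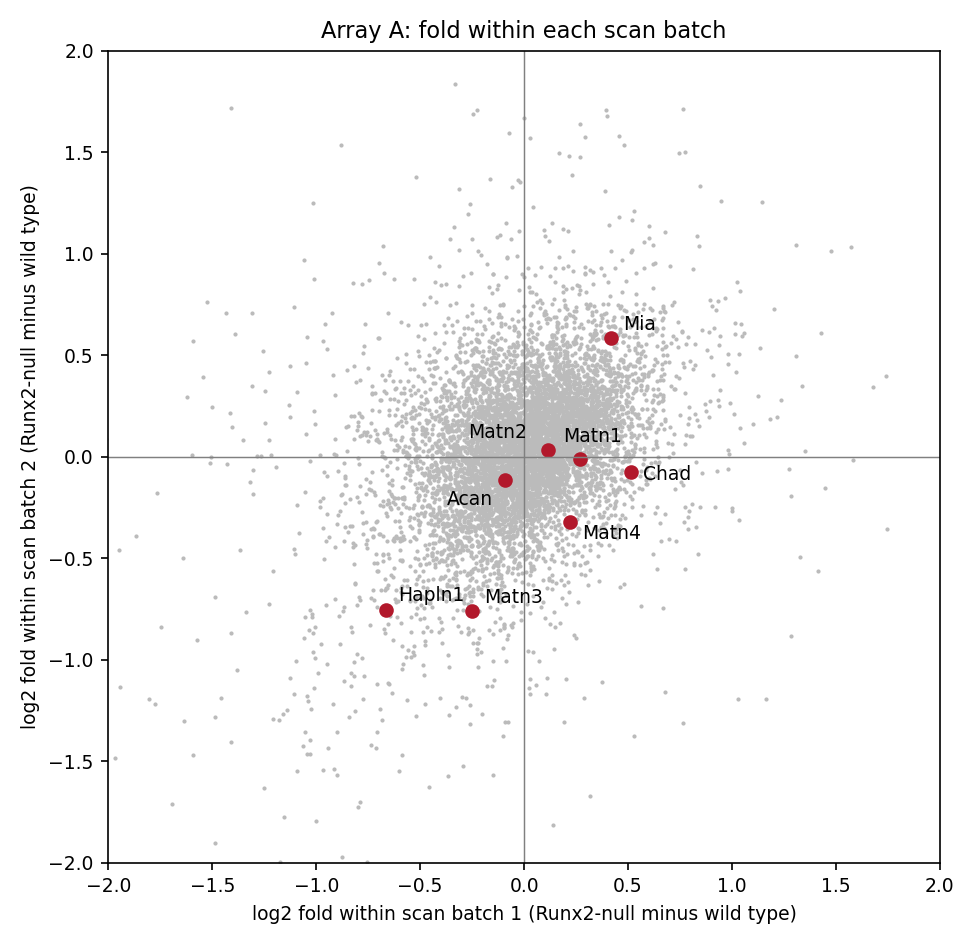
Log2 fold within scan batch 2 (vertical axis) against that within scan batch 1 (horizontal axis) for the probe sets tested on array A, with the 8 probe sets of the cartilage proteins in red. Axes are cut at 2 on the log2 scale either way, which leaves 31 of 7745 probe sets out. Hapln1 lies at the lower left and Mia at the upper right of the cloud, and Acan lies near its centre.

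The probe sets nearest to Hapln1 in pattern were named by the root mean square difference of log2 values, centred per probe set, over the 4 arrays of type A. They were Bcat1 (0.027), Fasn (0.038) and Dda1 (0.043), with log2 folds of -0.71, -0.76 and -0.69. For Mia they were Epb41l4aos (0.020), Gfer (0.021) and Mettl8 (0.027), with log2 folds of 0.49, 0.52 and 0.46. The likeness of these folds to those of Hapln1 and Mia follows from the choice, and shared regulation was not tested.

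Genes that build or break down the same matrix were followed in 6 lists, with 1 probe set per gene, and 0 genes of any list passed without the block. Among 13 hyaluronan and aggregate genes, 9 were tested, 5 of them on arrays A and B, where 1 rose and 4 did not pass. Vcan, the gene of versican, a hyaluronan-binding proteoglycan of looser connective tissue, had 448.8 and 354.7 in Runx2-null pools and 317.3 and 213.0 in wild-type pools. It rose by 0.60 on the log2 scale, with an SE of 0.11 (adjusted p = 0.0121 with the block, 0.741 without it). The list's median fold on arrays A and B was -0.04, beside 0.01 for all probe sets tested there.

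Of 9 genes for aggrecan-cleaving proteases and an inhibitor, 5 were tested, and 0 passed with the block. The lowest p was that of Htra1, a secreted serine protease, on array C as labelled, with 2389.2 and 2546.6 in Runx2-null pools and 3273.2 and 3178.5 in wild-type pools (log2 fold -0.39, adjusted p = 0.257). The aggrecanase genes Adamts4 and Adamts5, on array B, had log2 folds of 0.01 and 0.04. The median on arrays A and B was 0.03.

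In the list of chondroitin sulfate synthesis and sulfation, 15 of 19 tested genes lay on arrays A and B, with 1 gene that fell and 14 that did not pass. Chst12, a chondroitin 4-sulfotransferase, had 151.3 and 339.1 in Runx2-null pools and 311.6 and 619.4 in wild-type pools. The genotypes overlapped across batches, and within them Chst12 fell by 0.91 in log2 units with an SE of 0.18 (adjusted p = 0.0403 with the block, 0.802 without it). The list's median fold there was -0.25, with -0.11 and -0.27 in batches 1 and 2. Chst11, another sulfotransferase of that kind, and Slc35d1, a nucleotide sugar transporter needed for chondroitin sulfate, passed with the block on array C as labelled. Their log2 folds were 1.33 (adjusted p = 0.0174) and 1.01 (adjusted p = 0.0469), opposite in sign to that of Chst12.

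Among 11 tested relatives of the 10 genes by protein family, 8 lay on arrays A and B, where 1 rose and 7 did not pass. The riser was Ogn, which encodes a leucine-rich protein like chondroadherin, with 646.8 and 517.7 in Runx2-null pools and 433.3 and 310.0 in wild-type pools (log2 fold 0.65 with an SE of 0.10, adjusted p = 0.00400 with the block, 0.631 without it). Tnmd, the relative of Cnmd in tendon and one of the tendon markers above, passed with the block on array C as labelled, with 444.4 and 691.5 in Runx2-null pools and 1532.9 and 2116.8 in wild-type pools (log2 fold -1.68, adjusted p = 0.00595). Its sign was opposite to that of Cnmd on the same arrays, at 0.70, and to the median of 0.65 of the tendon markers on arrays A and B. Otor, the close relative of Mia, had 266.9 and 304.0 in Runx2-null pools and 173.9 and 162.5 in wild-type pools on array B, a log2 fold of 0.72 that did not pass (adjusted p = 0.102).

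Of 11 tested genes for other cartilage-enriched secreted proteins, 8 lay on arrays A and B, with 1 gene that fell and 7 that did not pass. Pcolce2, an enhancer of procollagen processing, had 336.0 and 776.1 in Runx2-null pools and 729.2 and 1481.6 in wild-type pools. Here too the genotypes overlapped across batches, and Pcolce2 fell by 1.01 in log2 units with an SE of 0.16 (adjusted p = 0.0194 with the block, 0.781 without it). Frzb, a secreted Wnt antagonist of cartilage, passed with the block on array C as labelled (log2 fold 1.99, adjusted p = 0.00754). The median fold on arrays A and B was 0.07.

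Of 7 tested genes in the list of the Sox trio and other chondrocyte regulators, each on array A or B, 2 genes fell while 5 did not pass. Pth1r, the receptor that holds chondrocytes back from maturation, fell by 2.12 (adjusted p = 1.32e-07 with the block and 0.169 without it), and Ihh, the hedgehog signal of prehypertrophic cells, by 1.20 (adjusted p = 0.00245 and 0.30) on the log2 scale. These genes also stand among the osteoblast and hypertrophic markers above. Sox9 and Sox6, which drive Acan and Hapln1 in chondrocytes, had log2 folds of -0.16 and 0.07 and did not pass.

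**Figure D5:**
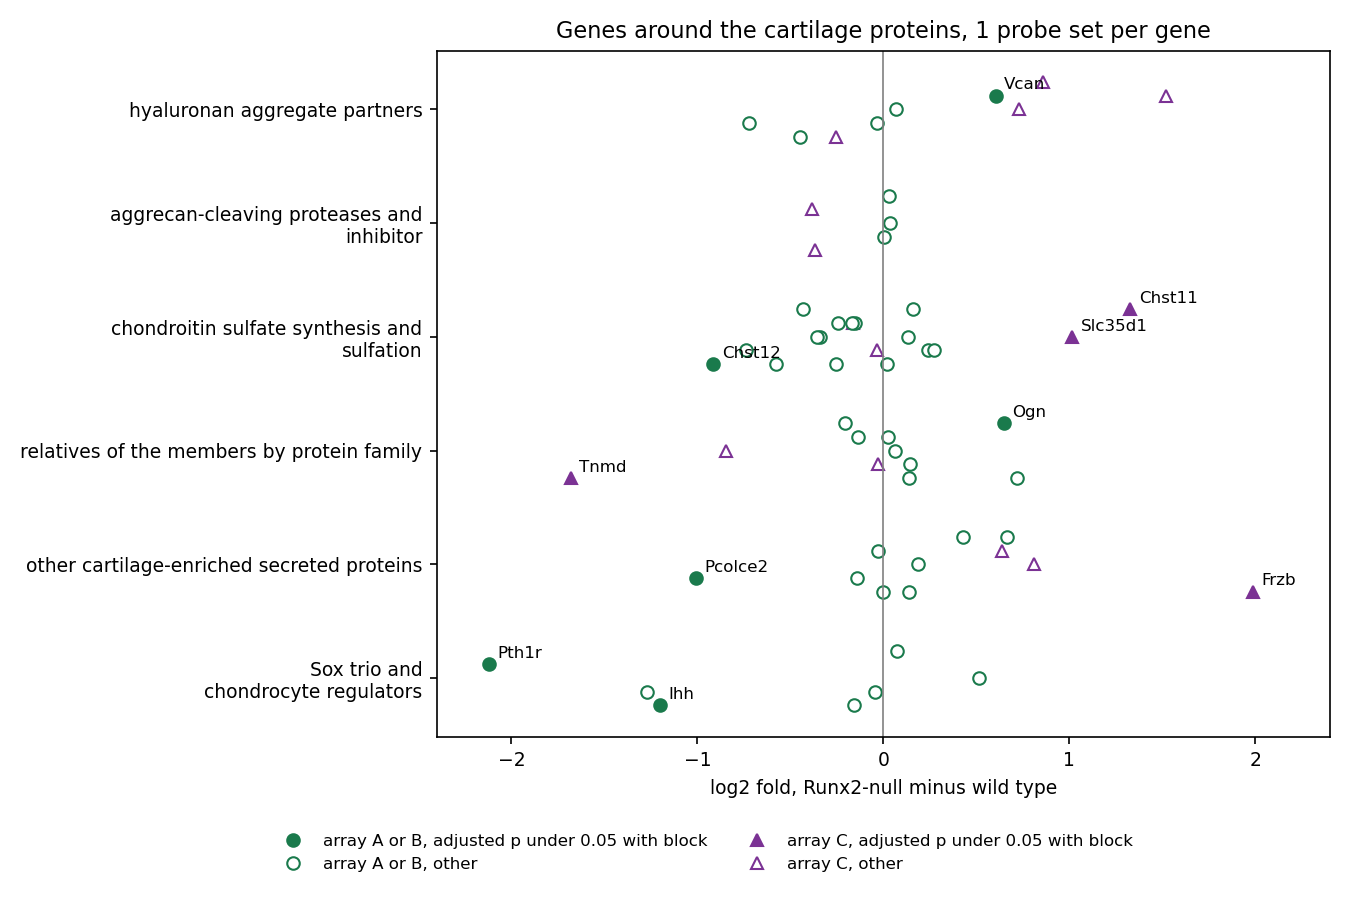
Log2 fold, Runx2-null minus wild type (horizontal axis), of the tested genes of the 6 lists (rows), 1 point per gene, spread vertically for legibility. Circles are arrays A and B and triangles array C, filled and named where the adjusted p with the block was under 0.05. Vcan and Ogn lie to the right of 0 among circles, and Chst12, Pcolce2, Ihh and Pth1r to the left.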

How the data were processed

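The authors deposited MAS5 signals, which are linear intensity values, per the submitters' processing notes. No version of MAS5 is named there. The 2% trimmed mean was 100.0 to 100.1 units on all 12 arrays, so no further scaling was applied. Per the labels' protocols, 10 µg of total RNA per sample was labelled with biotin. Scanner settings were read from the array files. Here, log2(signal + pseudocount) of the deposited signals was fitted per array type in R 4.3.3 with limma 3.58.1, using its lmFit and its eBayes with a variance trend. Pseudocounts were the rounded 20th percentile of signal in an array type. The 198 control probe sets were left out, and p-values were adjusted over 23193 probe sets together. The planned fit had no block.

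Between arrays with the same replicate number, deviations from the mean of the genotype had a correlation of 0.764 on A, 0.595 on B and 0.06 on C, and the array files place each number in 1 scan batch. The 1-symbol rule named 29131 probe sets, with 724 holding several symbols and 6846 none. Lists used 1 probe set per gene, chosen for the highest mean log2 signal as a percentile of its array type. Named from the lists were up to 4 genes past the threshold, otherwise the gene with the lowest p. Adamts4, Adamts5, Sox9, Sox6, Otor and the marker genes given with values fall outside that rule and were named after their values were seen. The genes, lists and tests were chosen with earlier results of these data known. The fits were also tried on simulated data with planted changes and correct labels, which does not bear on the doubt over array C. Runx2 is not reported here. Columns of other series numbered 0.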

Additional observations from a re-analysis of the deposited data

How the results depend on the processing

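Of 232 values of single cartilage probe sets under alternatives, 208 kept their direction and side of the threshold or, within a scan batch, stayed within the spread of the pools whatever their sign, 9 came to pass, 4 moved by more than that spread within a scan batch, and 11 turned sign on leaving out 1 pool. Within 1 scan batch the sign also turned for Matn1 (-0.011), Chad (-0.073), Matn4 on arrays A (0.22) and B (-0.77) and Hapln1 on array C (-0.039). With 1 pool left out, log2 folds ran from -0.28 to 0.073 for Acan, -0.10 to 0.22 for Hapln1 on array C, -0.0084 to 0.27 for Matn1, -0.0098 to 0.16 for Matn2, -0.42 to 0.31 and -1.16 to 1.45 for Matn4 on arrays A and B, and -0.12 to 0.56 for Chad. They kept their sign for Hapln1 on array A (-0.88 to -0.54), Mia (0.36 to 0.65), Matn3 (-0.64 to -0.37), Comp (0.58 to 1.60) and Cnmd (0.43 to 0.98), and 0 cartilage probe sets passed in any of these fits.

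The replicate block, equal to the scan batch, raised the count of cartilage probe sets past the threshold from 0 to 2, also on arrays A and B alone. Chosen after seeing the data were the block with quantile normalization, where 2 passed, with the 60th percentile filter, where 3 passed, and without a trend, where 0 passed. Over all probe sets the count of 6 became 505 with the block, 343 on arrays A and B with it, 667 and 632 with the block and the 60th percentile filter or quantile normalization, and 6 with the block but no trend. Without the block it was 11 each with quantile normalization, 2 times the pseudocount or the 60th percentile filter, 2 without a trend, 99 adjusted within array types, and 5 to 22 without 1 pool. With the block, list counts over all array types went from 0 to 1 for hyaluronan partners, 3 for chondroitin sulfate synthesis, and 2 each for family relatives, other secreted proteins and Sox trio regulators. The cause of these shifts was not tested.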
